A study of Mus musculus with 1 sample.

Results

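The poly(A) tails of 8 genes of the naïve pluripotency network, Zfp42, Zfp57, Nr0b1, Esrrb, Tfcp2l1, Klf2, Nanog and Tcl1, were examined in wild-type mouse 24h-EpiLCs, which are epiblast-like cells made from embryonic stem cells (ESCs) of the ICR strain. The genes were taken by name from a list of naïve genes and not by a rule on tail length, but with earlier results of these data known. All 8 had reads among the 12816 nuclear genes with a read. They held 1007 of 701976 nuclear transcripts, of which 304 came from replicate 1 and 703 from replicate 2. The cells had been cultured for 24 h on Matrigel with activin A, bFGF and 1% KSR. The study asked how RNA tails behave as cells leave naïve pluripotency, and its cells without the deadenylase Cnot8 were not analysed here. One group was therefore available, with 2 barcoded replicates from 1 sample, so no test between conditions was possible. Nothing in the labels says that the replicates came from separate cultures, and their spread may be technical.

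Naïve pluripotency is the state of the epiblast before implantation and of ESCs kept in ground-state medium. It is held by a network of transcription factors that is taken down as cells pass to the formative state. A poly(A) tail is added to an mRNA in the nucleus and is then shortened in the cytoplasm, mainly by the Ccr4-Not complex, and an mRNA with a very short tail is commonly decapped or degraded from its 3′ end. Uridines can be added to the ends of short tails by the enzymes Tut4 and Tut7, and appear as T in cDNA.

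Most of the 8 genes encode transcription factors, but not all fit that name. Zfp42 (Rex1) and Zfp57 are zinc finger proteins, and Zfp57 guards methylated imprinted regions. Esrrb is an orphan nuclear receptor, Tfcp2l1 belongs to the grainyhead family, Klf2 is a Krüppel-like factor and Nanog is a homeodomain protein. Nr0b1 (Dax1) is an atypical nuclear receptor that acts mainly as a corepressor. Tcl1 is a coactivator of the Akt kinase and not a DNA-binding factor.

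The label of the cells was checked against marker lists. Genes of the formative state, 12 of 13 with a read, reached 3341 in replicate 1 and 3042 in replicate 2, counted per 1000000 nuclear transcripts, and the core pluripotency list of 10 genes made up 5720 and 4299. The 8 naïve genes made up 1234 and 1543, and a list of 19 other naïve genes 824 and 1038. Single genes gave much of these sums. Trim28 gave 1678 of the 3368 core pluripotency transcripts, and Dnmt3l and Dnmt3a gave 573 and 494 of the 2209 formative ones. Primitive endoderm genes had 1 transcript, mesoderm genes 5, fibroblast genes 2 and 2-cell-like genes 0. Reads with a tail and at least 7 sequencing passes numbered 354259 in replicate 1 and 593361 in replicate 2. A gene with 0 reads could have had up to 12.2 and 6.58 transcripts per 1000000, the level of 3 reads. Of the 8 genes, Zfp42, Zfp57 and Nr0b1 had over 100 transcripts each, Esrrb had 40, and the other 4 had 10 to 21. All intervals below are 95% intervals for counting error only, and they treat each read as a separate molecule. The reads carry no molecular identifiers, so any copies of the same molecule would make these intervals too narrow.

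Some short tails are printed first as sequenced, 5′ to 3′, with A in lower case and any other base in capitals. They were chosen to show every T-ending form of 6 to 30 nt in the members, 1-read forms included, beside frequent pure-A forms of Zfp57 and Zfp42. They therefore do not show how often each ending occurred. A pure-A Zfp57 form of 12 nt, with 3 reads of which 2 were in replicate 1, is not printed. Most short tails had no terminal T, which was found in 13 of 53 in Zfp57 and 2 of 105 in Zfp42.
Zfp57, 8 reads: aaaaaaaaa
Zfp57, 3 reads: aaaaaaaaaa
Zfp57, 5 reads: aaaaaaaaaaaaaaaaaaaaaaaaaaaaa
Zfp57, 3 reads: aaaaaaaTT
Zfp57, 1 read: aaaaaaaaT
Zfp57, 4 reads: aaaaaaaaaT
Zfp57, 1 read: aaaaaaaaaaT
Zfp57, 1 read: aaaaaaaaaaaaaaaaTT
Zfp57, 2 reads, both in replicate 1: aaaaaaaaaaaaaaaaaaaT
Zfp57, 1 read: aaaaaaaaaaaaaaaaaaaaaaaaaaaaT
Zfp42, 9 reads: aaaaaaaaaaaaaaaaaaaaaaa
Zfp42, 9 reads: aaaaaaaaaaaaaaaaaaaaaaaaaaa
Zfp42, 1 read: aaaaaaaaaaaTT
Zfp42, 1 read: aaaaaaaaaaaaaaaaaaaaaaaaaT
Nr0b1, 1 read: aaaaaaaTT
Nr0b1, 2 reads: aaaaaaaaaaaaaT
Nr0b1, 1 read: aaaaaaaaaaaaaaT
Nr0b1, 1 read: aaaaaaaaaaaaaaaaaTT
Esrrb, 1 read: aaaaaaaaaaaTT

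The 8 genes did not share one tail length. Gene tail length was the geometric mean over the transcripts of a gene, and its median over the 7146 nuclear genes with at least 10 transcripts was 76.4 nt. Zfp57 and Zfp42 lay far below it, at 49.6 and 52.6 nt. Nr0b1, Klf2 and Nanog lay near it, and Tfcp2l1, Tcl1 and Esrrb lay above it. The median over the 8 genes was 75.8 nt, 0.604 nt less than that of all genes, and 4 of 8 genes were below the median. That small difference had no stable direction, since it was 5 nt in the other direction when each gene was given by its median tail, where 2 of 8 genes were below, and it was -15.0 nt in replicate 1 alone, with 4 genes.

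**Figure D1:**
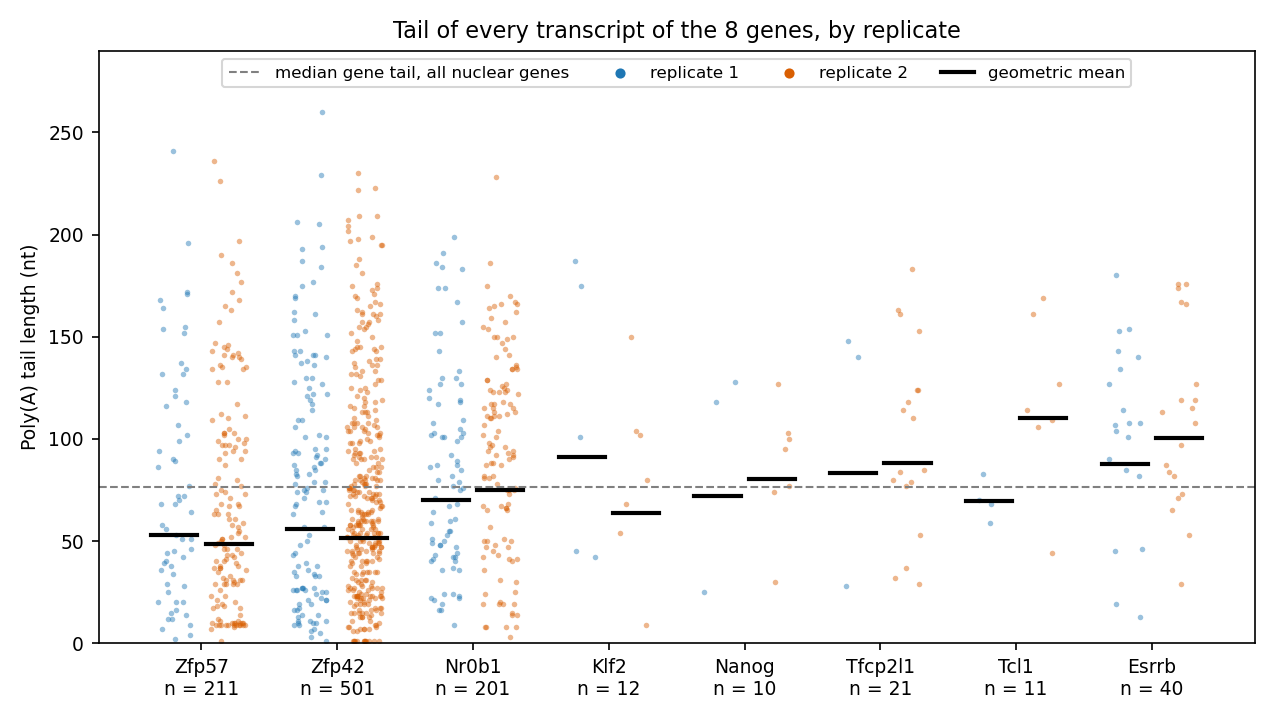
Tail length in nt of each of the 1007 transcripts of the 8 genes, ordered by pooled gene tail length. Points are transcripts of replicate 1 (blue) and replicate 2 (orange), black bars are geometric means per replicate, and the dashed line is the median gene tail of 76.4 nt. The bars of Zfp57 and Zfp42 lie under the line in both replicates and those of Esrrb above it in both.

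Only 4 of the 8 genes had at least 10 transcripts in each replicate. Zfp42, Zfp57 and Nr0b1 were below the all-gene median in both replicates, that is 3 of 4, where 33.4% of 4286 genes with such depth were. Esrrb was above it in both replicates, as were 35.7% of those genes. With 4 genes these counts describe the members and not naïve genes in general.

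In the order of gene tails, most neighbours could not be separated. Zfp57 and Zfp42 differed by 3.0 nt, less than the spread of their replicates, and both their replicate ranges and the intervals of their medians overlapped. The step from Zfp42 to Nr0b1, 20.4 nt, was larger than the spread of either gene, and neither the replicate ranges nor the intervals of the pooled medians overlapped. In replicate 1 alone the intervals did overlap, with medians of 78 nt (63 to 90) for Zfp42 and 79.5 nt (60 to 101) for Nr0b1. In replicate 2 they did not, with 63 nt (58 to 71) and 96 nt (87 to 111). Nr0b1, Klf2 and Nanog followed with steps of 0.868 and 3.86 nt and overlapped. Between Nanog and Tfcp2l1, 9.85 nt apart, the replicate ranges did not overlap but the intervals of the medians did. Tfcp2l1, Tcl1 and Esrrb overlapped one another as neighbours.

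Zfp42 (ENSMUSG00000051176, GRCm38 chromosome 8, 43295063 to 43306980, minus strand), a standard marker of the naïve state, gave the most transcripts of the 8 genes, 129 in replicate 1 and 372 in replicate 2. Its tails had a geometric mean of 55.8 nt in replicate 1 and 51.5 nt in replicate 2, a mean of 53.7 ± 3.03 nt (SD, n = 2). Both values were below the all-gene medians of 78.0 and 76.8 nt of the same replicates. In the pooled data, 13.9% of genes had a shorter tail. The geometric mean of Zfp42 depended on its shortest tails, of which 14 were of 1 nt, 13 of them in replicate 2. With tails of at least 6 nt its pooled value was 59.6 nt, and with at least 15 nt it was 67.9 nt. Both were still below the all-gene medians of 81.2 and 83.1 nt in these settings. Single tails ran from 1 to 260 nt in replicate 1, with a median of 78 nt (interval 63 to 90), and from 1 to 230 nt in replicate 2, with a median of 63 nt (58 to 71). The replicates differed in shape, since 12.4% of Zfp42 tails were 31 to 60 nt long in replicate 1 and 25.5% in replicate 2. Zfp42 transcripts also took different shares of the libraries, 524 per 1000000 nuclear transcripts (437 to 622) in replicate 1 and 816 (736 to 904) in replicate 2, and the part of this difference in the tail values was not tested.

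Zfp57 (ENSMUSG00000036036, GRCm38 chromosome 17, 37001163 to 37010635, plus strand) had the shortest gene tail of the 8, from 60 and 151 transcripts. The geometric means of the replicates were 52.9 and 48.3 nt, a mean of 50.6 ± 3.24 nt (SD, n = 2), and 11.6% of all genes had a shorter pooled tail. The tails of Zfp57 ran from 2 to 241 nt with a median of 66 nt (44 to 90) in replicate 1, and from 1 to 236 nt with a median of 57 nt (46 to 71) in replicate 2. As in Zfp42, long tails were present, and 34.1% of pooled Zfp57 tails and 33.9% of Zfp42 tails exceeded 90 nt. Among all nuclear transcripts, 50.6% did.

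Nr0b1 (ENSMUSG00000025056, GRCm38 chromosome X, 86191764 to 86195947, plus strand) was close to the typical gene. Its tails averaged 70.1 nt in 80 transcripts of replicate 1 and 74.9 nt in 121 transcripts of replicate 2, a mean of 72.5 ± 3.39 nt (SD, n = 2), and 43.3% of genes had a shorter pooled tail. Single tails reached from 9 to 199 nt and from 3 to 228 nt, with medians of 79.5 nt (60 to 101) and 96 nt (87 to 111). The share over 90 nt was 49.8% in the pooled data, close to that of all nuclear transcripts.

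Esrrb (ENSMUSG00000021255, GRCm38 chromosome 12, 86361117 to 86521628, plus strand) had 20 transcripts in each replicate. Replicate 1 gave a geometric mean of 87.5 nt and replicate 2 one of 101 nt, a mean of 94.1 ± 9.29 nt (SD, n = 2), and 82.7% of genes had a shorter pooled tail. Tails ran from 13 to 180 nt with a median of 107.5 nt, and from 29 to 176 nt with a median of 110.5 nt. Both replicates were thus longer than the all-gene median, and 25 of 40 tails exceeded 90 nt.

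**Figure D2:**
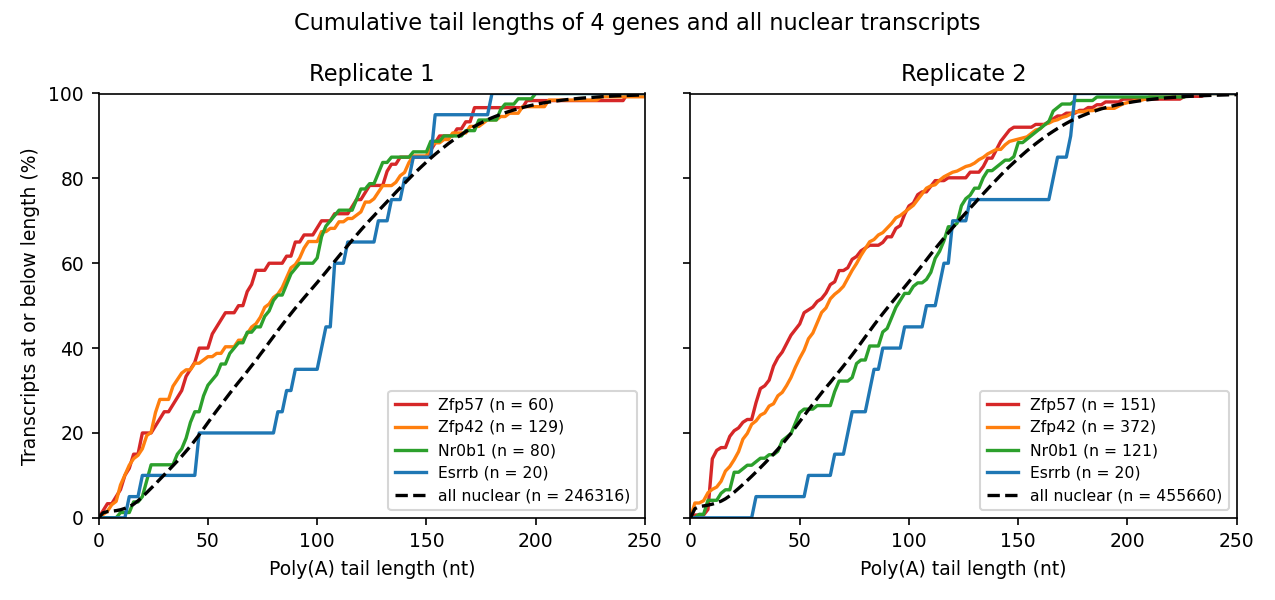
Share of transcripts (%) with a tail at or below each length (nt) in replicate 1 (left) and replicate 2 (right), for Zfp57, Zfp42, Nr0b1, Esrrb and all nuclear transcripts (dashed). The curves of Zfp57 and Zfp42 rise above the dashed curve at short lengths in both replicates, and the Esrrb curve, from 20 transcripts in each, mostly runs below it.

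The other 4 genes were sampled too thinly for a tail length per replicate to be firm, and their single tails are given where they were few. Tfcp2l1 (ENSMUSG00000026380, chromosome 1) had tails of 28, 140 and 148 nt in replicate 1, and 18 tails from 29 to 183 nt with a median of 97.5 nt in replicate 2. Its geometric means of 83.4 and 88.3 nt were both above the all-gene medians, but the first rests on 3 reads. The pooled value was 87.6 nt.

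Klf2 (ENSMUSG00000055148, chromosome 8) had tails of 42, 45, 101, 175 and 187 nt in replicate 1 and of 9, 54, 68, 80, 102, 104 and 150 nt in replicate 2. The geometric means, 91 and 63.6 nt, fell on opposite sides of the all-gene median, and the ranges of single tails overlapped. Nanog (ENSMUSG00000012396, chromosome 6), a core member of the network, had tails of 25, 118 and 128 nt in replicate 1 and of 30, 74, 77, 95, 100, 103 and 127 nt in replicate 2. Its geometric means of 72.3 and 80.1 nt also lay on both sides. Tcl1 (ENSMUSG00000041359, chromosome 12) had tails of 59, 68, 70 and 83 nt in replicate 1 and of 44, 106, 109, 114, 127, 161 and 169 nt in replicate 2, with means of 69.5 and 110 nt. All but 1 of its replicate 2 tails were longer than every replicate 1 tail, a spread of 29.0 nt (SD, n = 2) that leaves its side of the median undetermined at this depth.

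Short tails, here those of 6 to 30 nt, were more frequent in Zfp42 and Zfp57 than among all nuclear transcripts. They made up 33 of 129 Zfp42 tails in replicate 1 (25.6%, Wilson interval 18.8% to 33.7%) and 72 of 372 in replicate 2 (19.4%, 15.7% to 23.7%). In Zfp57 they made up 13 of 60 (21.7%, 13.1% to 33.6%) and 40 of 151 (26.5%, 20.1% to 34.0%). The share among all nuclear transcripts was 8.62% and 8.05%, below each of these 4 intervals. Nr0b1 had 10 of 80 (12.5%, 6.93% to 21.5%) and 15 of 121 (12.4%, 7.66% to 19.4%), intervals that include the share of all nuclear transcripts. Pooled, the Nr0b1 share was 12.4% (8.57% to 17.7%), just above the pooled 8.25% of all nuclear transcripts. Esrrb had 2 and 1 such tails, Tfcp2l1 had 2 in all, Nanog 2, Klf2 1 and Tcl1 0, and with so few transcripts a share of up to 25.9% remained possible for Tcl1. The share was above that of all transcripts in both replicates in 3 of the 4 members with at least 10 transcripts in each, Zfp42, Zfp57 and Nr0b1, against 30.6% of 4286 genes.

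Tails of 1 to 5 nt did not follow the same pattern. They made up 3.19% of Zfp42 tails (1.98% to 5.12%), 1.42% of Zfp57 tails (0.485% to 4.10%) and 0.498% of Nr0b1 tails (0.0879% to 2.76%), and 2.32% of all nuclear transcripts lay within all 3 intervals.

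Within the short tails, the lengths were examined in windows drawn after the values were seen. In Zfp42, 38 tails of 22 to 27 nt made up 7.58% of its transcripts, 12 in replicate 1 and 26 in replicate 2, where 2.92% of all nuclear transcripts had such tails. Zfp57 had 4 of them (1.90%). Tails of 9 to 11 nt, which made up 0.368% of all nuclear transcripts, were more frequent in both genes, with 13 in Zfp42 (2.59%), none with a final T, and 21 in Zfp57 (9.95%).

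The order of the genes in tails of 9 to 11 nt was not the same in both replicates. Zfp42 had 8 of 129 in replicate 1 (6.20%, 3.18% to 11.8%) and 5 of 372 in replicate 2 (1.34%, 0.575% to 3.11%). Zfp57 had 1 of 60 in replicate 1 (1.67%, 0.295% to 8.86%) and 20 of 151 in replicate 2 (13.2%, 8.74% to 19.6%). The larger share of Zfp57 was thus seen in replicate 2 only. The 21 Zfp57 reads came from 21 sequencing wells and had 7 to 363 passes with a median of 36. Copies of one molecule made during amplification cannot be told from separate molecules here, and their part in this group was not tested.

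When tails of 9 to 11 nt were left out of all genes, the pooled gene tails were 59.5 nt for Zfp57 and 55.0 nt for Zfp42, both still below the all-gene median of 76.8 nt. Zfp57 was then at 54.5 and 61.9 nt in replicates 1 and 2 and Zfp42 at 62.5 and 52.7 nt, so that their order differed between replicates. The share of short tails was then 16.8% in Zfp57 and 18.9% in Zfp42.

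**Figure D3:**
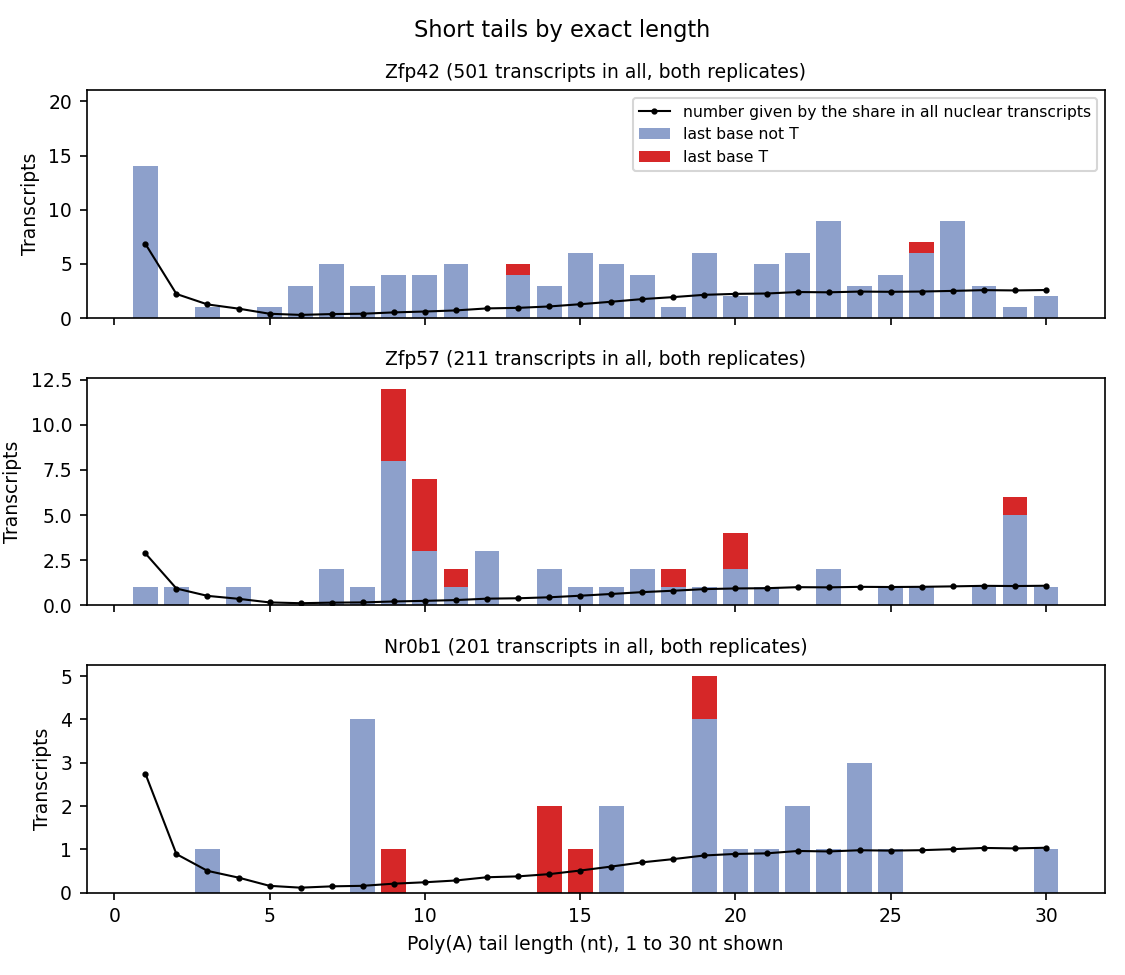
Number of transcripts of Zfp42, Zfp57 and Nr0b1 at each tail length from 1 to 30 nt, both replicates together, split by whether the last base was T (red) or not (blue). Black points give the number that the share of all nuclear transcripts at that length would yield. Zfp57 has 21 tails at 9 to 11 nt, 20 of them from replicate 2 and 9 ending in T, and Zfp42 has 2 red tails among 105 of 6 to 30 nt.

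The last base of the short tails differed between Zfp42 and Zfp57 in the pooled data. In Zfp42, 1 of 33 short tails ended in T in replicate 1 and 1 of 72 in replicate 2, pooled 1.90% (0.524% to 6.68%). In Zfp57, 2 of 13 and 11 of 40 did, pooled 24.5% (14.9% to 37.6%). The 2 pooled intervals did not overlap, nor did those of replicate 2 (0.246% to 7.46% and 16.1% to 42.8%), but those of replicate 1 did (0.537% to 15.3% and 4.33% to 42.2%). In Nr0b1, 1 of 10 and 4 of 15 short tails ended in T, pooled 20.0% (8.86% to 39.1%), an interval that covers the 15.2% of all nuclear transcripts. Esrrb had 1 T-ending short tail of 3, and the other 4 genes had none among their few short tails.

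The low T share of Zfp42 held in each replicate, where all nuclear transcripts had 18.3% in replicate 1 and 13.4% in replicate 2. The Zfp42 intervals, 0.537% to 15.3% and 0.246% to 7.46%, lay below these shares. Among the 3 members with at least 10 short tails in each replicate, Zfp42 alone was below all transcripts in both, as were 37.4% of 361 genes. In pooled T share, 10 of these 361 genes were lower than Zfp42 and 350 were higher, and their median was 13.6%. Of 28 genes with at least as many short tails as Zfp42, Zfp42 itself included, 1 was lower. Zfp42 tails longer than 30 nt did end in T in 8 reads, so terminal T was not absent from the gene.

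In Zfp57, all 9 T-ending tails of 9 to 11 nt were in replicate 2. Of the 13 T-ending short tails, 9 had a single T and 4 had TT. Without the tails of 9 to 11 nt the T share was 4 of 32, or 12.5%, with 2 T-ending tails left in each replicate. The high T share of Zfp57 thus rested on this group and on replicate 2. Tails of 6 to 15 nt more often ended in T than those of 16 to 30 nt among all nuclear transcripts too, 24.9% against 13.2%, and Zfp42 had 1 T-ending tail among 38 and 1 among 67 in these ranges.

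Over all 1007 transcripts of the 8 genes, 191 tails (19.0%) were of 6 to 30 nt, and 21 of these (11%) ended in T. Zfp42 supplied 105 of the 191. Without it the shares were 17% and 22.1%, the latter 19 of 86. Non-A bases at any position were found in 9.43% of the members' tails and 10.5% of all nuclear tails. In Zfp42, 37 of 501 tails held one (7.39%), with C in 19, T in 13 and G in 5 tails, and in Zfp57, where T was found in 18 tails and C in 4, 23 of 211 did (10.9%).

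Other genes of the pluripotency states gave the members a frame. Of 19 other naïve genes, 11 had at least 10 transcripts, with a median gene tail of 79.6 nt and 4 below the all-gene median. The shortest were Jam2, a junction adhesion molecule (22.3 nt, 13 transcripts, with 44.2 and 12.4 nt in replicates 1 and 2), and Zfp819 (52.2 nt, 19 transcripts), and the longest were Dppa3, a maternal factor that protects DNA methylation (107 nt, 11 transcripts, with 172 and 89.4 nt), and Lefty2, a Nodal inhibitor (92.0 nt, 29 transcripts). The median share of short tails per gene was 7.69% in that list and 11% in the 8 members. Pooled over transcripts the shares were 7.25% and 19.0%, but Fgf4 gave 401 of the 676 transcripts of that list and Zfp42 gave 501 of the 1007 of the members.

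Of the 10 core pluripotency genes, 9 had enough transcripts and a median of 82.3 nt, with 3 below the all-gene median. Dppa2 (66.6 nt) and Sall4 (75 nt) had the shortest tails, and Pou5f1, which encodes Oct4 (107 nt), and the RNA-binding protein gene Lin28a (104 nt) the longest. Short tails made up only 1.65% of Pou5f1 transcripts, against 21% for Zfp42.

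The formative genes, which come up as cells leave the naïve state, were also spread over both sides of the median. The median over 11 of them was 70.8 nt, with 7 below the all-gene median. Otx2, a driver of the formative state, had a tail of 58.4 nt and 25% short tails from 160 transcripts, of which 4 of 40 ended in T. Fgf5, the usual marker of EpiLCs, had 59.0 nt from 37 transcripts, with 77.9 and 44.0 nt in replicates 1 and 2. Pou3f1 (96.8 nt) and Etv4 (96.5 nt) were longest, but Etv4 had only 17 transcripts, with 126 and 80.2 nt in replicates 1 and 2. A high share of short tails was therefore also seen outside the naïve genes.

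**Figure D4:**
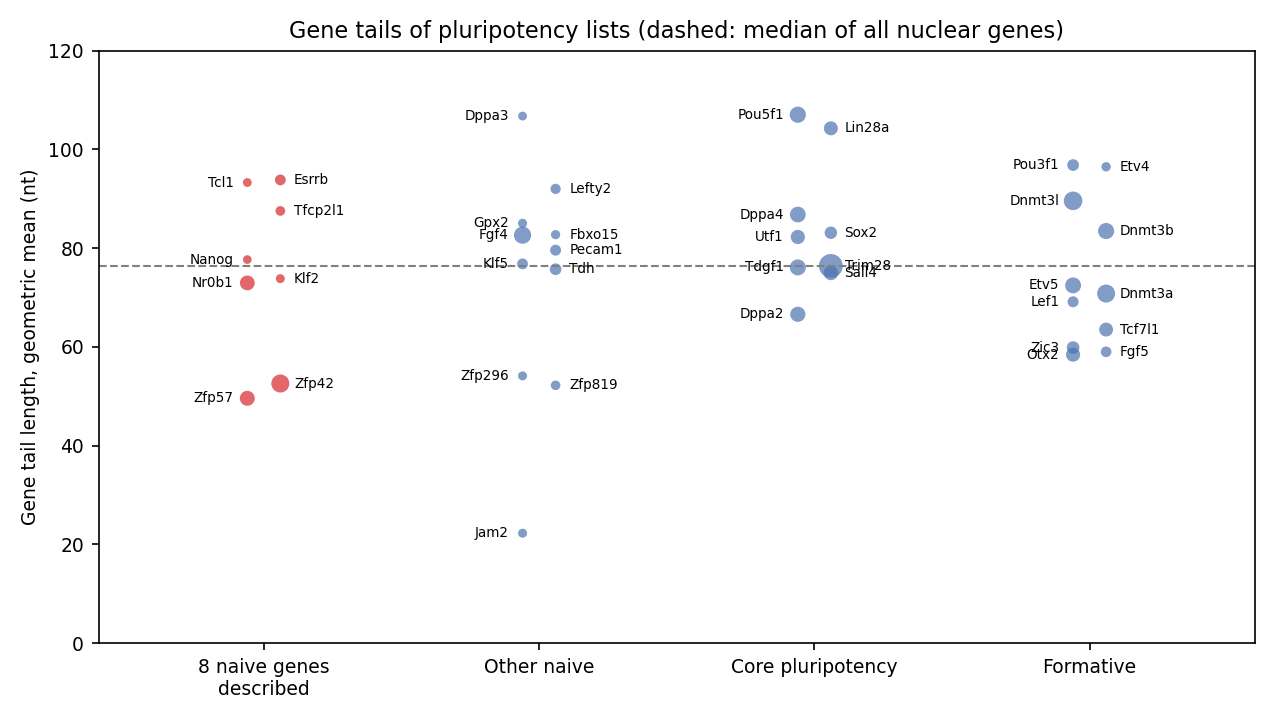
Pooled gene tail length (geometric mean, nt) of the 8 genes described (red) and of other naïve, core pluripotency and formative genes with at least 10 transcripts (blue), with point size increasing with the number of transcripts. The dashed line is the all-gene median of 76.4 nt. The red points run from 49.6 to 93.8 nt, on both sides of the line.

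The genes with tail distributions most like those of the well-covered members were sought among 1365 protein-coding genes with at least 100 transcripts. Likeness was the largest gap between cumulative curves, where 0 means equal curves and 1 no overlap. For Zfp42, the nearest were the chromatin remodeler gene Chd1 (gap 0.0389), the amino acid transporter gene Slc7a3 (0.0393) and the splicing cofactor gene Son (0.0442), where the median gap was 0.192. For Zfp57, they were Gtpbp4 (0.0657), Clint1 (0.0671) and M6pr (0.0705), with a median gap of 0.240. For Nr0b1, they were Ddx18 (0.0434), Ppm1g (0.0451) and the citrate synthase gene Cs (0.0455), with a median gap of 0.121. The gap between a member's own replicates was larger than each of these, at 0.123 for Zfp42, 0.0857 for Zfp57 and 0.163 for Nr0b1, so the order among near genes is not resolved. Zfp42 and Zfp57 were 0.0825 apart, and Zfp42 and Nr0b1 0.178. These gaps between genes are pooled, and those to the nearest genes were larger within each replicate. For Zfp42 and Chd1 they were 0.121 and 0.0804 in replicates 1 and 2, and for Zfp42 and Zfp57 0.126 and 0.106.

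The bases around the polyadenylation signal, close to the annotated 3′ end, are shown next for the 3 genes with most transcripts and for Klf2, whose signal differs. Each window is on the gene's strand in GRCm38, 5′ to 3′, from GENCODE, with the signal in capitals. The Zfp42 window is chr8:43295063-43295086 (minus strand), that of Zfp57 is chr17:37010579-37010606 (plus), that of Nr0b1 is chrX:86195912-86195939 (plus) and that of Klf2 is chr8:72321628-72321655 (plus).
Zfp42: taaaaggaAATAAAacactagaaa
Zfp57: ccccacaaAATAAAtacaatttttaaaa
Nr0b1: taacttttAATAAAatttaaggtactaa
Klf2: aaaagaaaATTAAAaaccttttcctggt

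The signal AATAAA stood in the last 50 bases of the 3′ UTR in 7 of 8 members, and in 64.7% of 6754 genes. The annotated transcripts of Zfp42, Zfp57 and Nr0b1 all ended in 3 A, which for Zfp57 and Nr0b1 lie beyond the windows shown. Since the authors extended tails into adjoining A tracts, genomic A at the cleavage site can count toward a tail, equally for these 3 genes if cleavage was at the annotated end. From the start of the signal to that end there were 46 bases in Zfp57, 16 in Zfp42 and 28 in Nr0b1. Where cleavage took place was not tested.

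The annotated 3′ UTRs of Zfp57 and Zfp42 had 111 and 533 nt, the second within the quartiles of 412 to 2017 nt of all genes compared. Nr0b1 had 352 nt, Klf2 737, Tcl1 962, Nanog 1078, Esrrb 2560 and Tfcp2l1 7734, and the median of 6754 genes was 992 nt. A shorter 3′ UTR than that of Zfp57 was found in 5.52% of genes, and a shorter one than that of Zfp42 in 31.5%. The AU-rich motif ATTTA, searched on the transcript strand in a single annotated transcript per gene, was in 6 of 8 members and 68.6% of genes. The members without it were Zfp42 and Zfp57, and the share of genes was not matched for 3′ UTR length. The Pumilio motif TGTANATA was in Esrrb, Klf2 and Tfcp2l1, 3 of 8, and in 25.7% of genes. A match of letters is not a site, and no match says only that the letters are not in the annotated 3′ UTR.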

How the data were processed

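PAIso-seq libraries, which copy full-length RNA with its tail for PacBio sequencing, were made by the authors from total RNA of wild-type 24h-EpiLCs. Per the paper's methods and the submitters' processing notes, consensus reads were mapped to mm10 with minimap2 2.17 and assigned with featureCounts 2.0.1. The deposited table gives for each read its barcode, gene, number of passes, base counts and sequence of the tail, unnormalized; reads without a tail were discarded by the authors. Replicates were numbered by barcode, since the labels do not say which is which.

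Tail length was the number of A and non-A bases. Reads with at least 7 passes and nuclear genes of GENCODE mouse release 21 (GRCm38) were used. Gene tail length was the geometric mean, for genes with at least 10 transcripts. Shares have Wilson intervals, medians exact order-statistic intervals and rates exact Poisson intervals. With 1 group, no test was run. The 8 members, the other lists and the alternatives were chosen with earlier results of these data known. All 8 members were named, with the 2 shortest and 2 longest genes of each list and the 3 nearest genes of each member with at least 100 transcripts. Scripts were tested on simulated data. Scripts ran in Python 3.11.15 with pandas 2.3.3 and numpy 2.4.6. Intervals came from scipy 1.17.1 and plots from matplotlib 3.10.9.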

Additional observations from a re-analysis of the deposited data

Results flagged for a closer look

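Reads with fewer than 7 passes were outside the values above and held 40 Zfp42, 13 Zfp57 and 13 Nr0b1 transcripts. They are listed because they carry signal in data that were not used. Their geometric mean tails were 69.3 nt for Zfp42, 34.0 nt for Zfp57 and 91.8 nt for Nr0b1, and 7, 2 and 1 of them had 6 to 30 nt. The other 5 genes had no such reads.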

How the results depend on the processing

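Among alternatives that left a gene enough transcripts, Zfp42 lay below the all-gene median in 14 of 14 and Zfp57 in 15 of 15. Esrrb lay above it in 15 of 15, Tfcp2l1 in 13 of 13 and Tcl1 in 11 of 11. Nr0b1, Klf2 and Nanog changed sides in at least 1. For Tfcp2l1 and Tcl1 the counts leave out replicate 1 alone, with 3 and 4 transcripts, and the setting of at least 30 transcripts. For Tcl1 they also leave out replicate 2 alone, with 7 transcripts, and the setting of at least 15 passes. The settings that were counted reuse the same few reads, so neither side is firm. In replicate 1, Tcl1 was at 69.5 nt, -8.50 nt from the all-gene median, and Tfcp2l1, at 83.4 nt, was above it. The difference between the members' median and that of all genes, -0.604 nt, had no stable direction. It was 0.583 nt with tails of at least 15 nt, 5 nt with the median per gene 1.33 nt without Zfp42 and 5.84 nt without tails of 9 to 11 nt in all genes, and -13.9 nt with genes of at least 30 transcripts. Without either replicate in turn it ran from -15.0 to -1.84 nt, where only 4 and 5 members kept 10 transcripts. With the median per gene, 2 of 8 members lay below. The share of short tails was 17% without Zfp42, 17.2% without the Zfp57 tails of 9 to 11 nt and 16% without such tails in all genes, the last pair chosen after seeing the data. The share of short tails ending in T was then 22.1%, 7.06% and 7.10%. The other alternatives left these 4 results within the replicate spread or, for the count, within 1.5 times. The cause of these changes was not tested, beyond the removal itself. No paired analysis was possible because both replicates belong to 1 group. Depth limits Klf2, Nanog, Tcl1 and Tfcp2l1, with 10 to 21 transcripts each, and the reads have no molecular identifiers.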
